A study of Mus musculus with 10 samples.

Results

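Imprinted genes are transcribed mainly from a single parental copy. A list of 40 such genes at 18 loci was matched by mouse symbol to the deposited count table, and those with at least 10 counts in at least 5 libraries were kept. This left 39 of the 40, among the 17937 genes that could be tested and the 54532 genes in the table; each of the 39 was tested. Snurf, the remaining listed gene, had 0 counts in all 10 libraries. The libraries came from the cochlea, the hearing organ in the inner ear, of newborn female mice (postnatal day 1). The control genotype was Esrrgfl/fl, in which both copies of Esrrg, a gene for an orphan nuclear receptor, carry loxP sites (5 animals). The other genotype was Esrrgfl/fl;Sox10-Cre, labelled cKO (5 animals), which also carries a Cre recombinase driven by Sox10 sequence. Sox10 is used by the otic epithelium and by glia derived from the neural crest. Cells of the tissue not descended from cells that used Sox10 would keep the floxed gene. Left and right cochleae of an animal were combined into a library after the bony capsule was taken off, and polyadenylated RNA was sequenced. Controls carried no Cre, so an effect of Cre and an effect of the deletion cannot be told apart. The reads were not separated by parental copy.

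In an imprinted locus, DNA methylation set in the egg or the sperm marks a control region, and the mark decides which copy is used. Many loci pair a protein-coding gene used from the paternal copy with a non-coding RNA used from the maternal copy, or the reverse. Several of the proteins set fetal growth: Igf2 is a growth factor, and Cdkn1c, Grb10 and Igf2r restrain growth. At the Dlk1-Dio3 domain the paternal copy gives Dlk1 (a Notch-related surface protein that keeps precursor cells undifferentiated), Rtl1 (derived from a retrotransposon) and Dio3 (a deiodinase that inactivates thyroid hormone), and the maternal copy gives the non-coding RNAs Meg3, Rian and Mirg, which host many small RNAs.

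The deposited counts summed to between 34504710 and 41779836 per control library and between 33487089 and 39988724 per library labelled cKO (5 each). Esrrg went against its label: its counts were 2404, 1725, 2099, 2336 and 2414 in the controls and 3632, 3359, 3146, 2768 and 3477 in the libraries labelled cKO, a log2 fold change of 0.62 (edgeR adjusted p = 0.0259). Counts per gene do not show which exons the reads came from. Control library 2 stood apart among the controls, with the lowest CPM of the 5 controls for 19 of the 39 members and the highest for 13. CPM here is the count per 1000000 of a library's effective total, which is the sum over the tested genes times a TMM scaling factor. Fold changes are on the log2 scale, positive where the level was higher in the libraries labelled cKO than in the controls, and the threshold for a call is an adjusted p under 0.05.

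None of the 39 imprinted genes passed the test (edgeR quasi-likelihood F-test, Benjamini-Hochberg adjustment over all tested genes), against 0.619% of all tested genes. Their log2 fold changes ran from -0.90 for Rtl1 to 0.48 for Phlda2 with a median of 0.03, and the median over all tested genes was -0.01. At an unadjusted p under 0.05 there were 13 of 39 members (33.3%, beside 9.65% of all tested genes). On the lower side these were Mcts2, Meg3, Mirg, Peg13, Rian, Rtl1, Snrpn and Usp29, 8 genes (20.5%, beside 5.52%). Rtl1 among them met the count filter through the controls, the group where it was higher. Grb10, Igf2, Peg3, Plagl1 and Zim1 were the 5 on the higher side (12.8%, beside 4.13%). Of the 13, 4 lie in the Dlk1-Dio3 domain and 3 in the Peg3 domain. On the lower side DESeq2 called 2 members, Rian and Snrpn (1.18% of its tested genes were called lower), and limma-voom with quality weights 3, namely Peg13, Rian and Snrpn (1.64%). Without control library 2, edgeR called Peg13 alone as lower (0.981%), and without cKO library 1 it called Rian and Snrpn as lower (0.551%). No member was called as higher in these fits. With single libraries left out, edgeR called Peg13, Rian and Snrpn in 1 fit each.

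**Figure D1:**
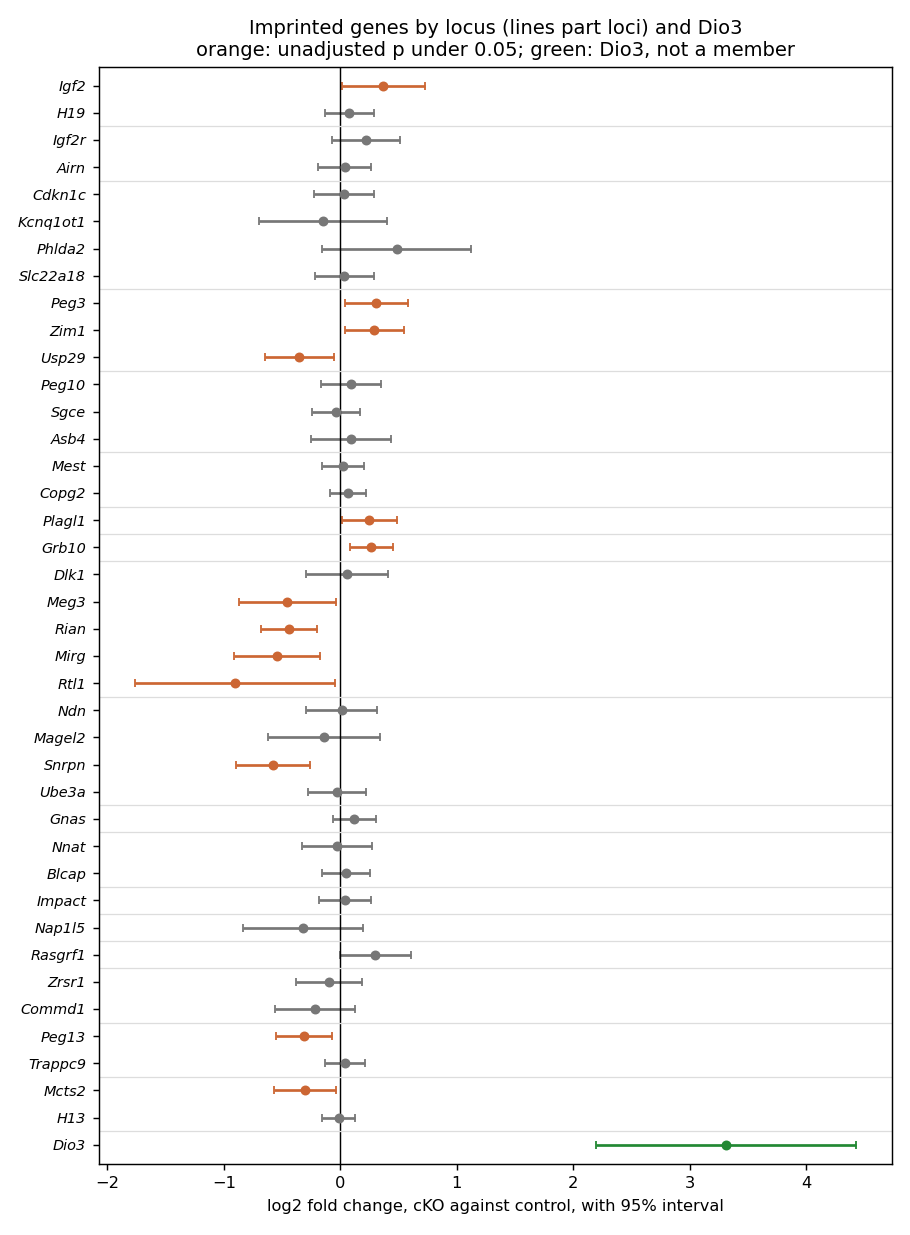
Log2 fold change of each imprinted gene in the libraries labelled cKO against the controls (horizontal axis) with its 95% interval, in order of locus; faint lines part the loci, orange marks an unadjusted p under 0.05, and Dio3 is shown in green as a neighbour outside the list. Dlk1 lies near 0 while Meg3, Rian, Mirg and Rtl1 lie below it, and the interval of Dio3 starts at 2.20.

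The Dlk1-Dio3 domain lies on mouse chromosome 12, with 826 kb from the annotated start of Dlk1 (chr12:109452823-109463336, plus strand) to that of Dio3 (chr12:110279068-110281097, plus strand). In between lie Meg3 (chr12:109541001-109571726), Rtl1 (chr12:109589193-109600330, minus strand), Rian (chr12:109603940-109661716) and Mirg (chr12:109729764-109749460), on build mm10. The start-site sequences of Dlk1, Meg3 and Dio3, whose levels are compared below, are shown first. They are RefSeq windows of mm10 from 250 bases before to 50 after a transcript start, written on the plus strand 5′ to 3′. In the windows of Dlk1 (chr12:109452573-109452872), of the annotated 5′ start of Meg3 (chr12:109540746-109541045) and of Dio3 (chr12:110278980-110279279), capitals mark CG dinucleotides. Imprinting methylates CG sites, but whether those in these windows are methylated was not measured. In the window of a downstream Meg3 start (chr12:109545148-109545447), capitals mark the only match to TNAAGGTCA, the binding sequence known for the oestrogen-related receptors, of which Esrrg encodes a member.
Dlk1 start: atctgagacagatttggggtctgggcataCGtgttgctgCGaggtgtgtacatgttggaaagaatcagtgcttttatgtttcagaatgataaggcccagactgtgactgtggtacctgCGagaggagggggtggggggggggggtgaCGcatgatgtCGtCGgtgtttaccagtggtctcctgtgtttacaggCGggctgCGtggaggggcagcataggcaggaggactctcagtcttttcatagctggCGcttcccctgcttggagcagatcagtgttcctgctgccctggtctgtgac
Meg3 start: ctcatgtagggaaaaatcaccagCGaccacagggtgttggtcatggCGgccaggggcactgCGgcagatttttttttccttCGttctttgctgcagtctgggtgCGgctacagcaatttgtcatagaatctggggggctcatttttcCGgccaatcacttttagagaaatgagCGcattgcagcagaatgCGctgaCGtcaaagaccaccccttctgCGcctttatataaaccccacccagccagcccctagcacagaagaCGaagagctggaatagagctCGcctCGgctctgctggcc
Meg3 downstream start: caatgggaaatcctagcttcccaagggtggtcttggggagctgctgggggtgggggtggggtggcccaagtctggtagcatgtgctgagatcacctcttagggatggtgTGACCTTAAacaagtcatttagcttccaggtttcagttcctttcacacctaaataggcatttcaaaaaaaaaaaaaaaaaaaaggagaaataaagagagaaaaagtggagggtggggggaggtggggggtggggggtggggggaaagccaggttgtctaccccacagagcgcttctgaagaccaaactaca
Dio3 start: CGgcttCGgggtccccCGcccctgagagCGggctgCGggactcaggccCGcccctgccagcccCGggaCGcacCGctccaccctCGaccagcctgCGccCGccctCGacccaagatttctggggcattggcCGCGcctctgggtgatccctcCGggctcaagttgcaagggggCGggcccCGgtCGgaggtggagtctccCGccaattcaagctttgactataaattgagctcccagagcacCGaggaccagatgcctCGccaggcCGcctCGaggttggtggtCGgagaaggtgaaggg
The Dlk1 window held 9 CG, the first Meg3 window 13, the downstream Meg3 window 1 and the Dio3 window 25, and the median of all 32851 RefSeq windows of this length was 7. TNAAGGTCA, searched on both strands, was in 1.28% of all windows. Of the 46 windows found for 31 members, the downstream Meg3 window was the 1 with a match. The shorter AGGTCA, which the longer motif contains, was in 4 of the 46 member windows (Airn, Igf2, Igf2r and Meg3) and in 16.3% of all windows. TGCCGC, a core found in binding sites of Zfp57, which keeps imprints in place, was in 13 of the 46 member windows and 11.6% of all windows. The 13 include overlapping Mest windows, so some sites are counted more than once. TGCCGC itself contains a CG, and member windows were not matched to all windows for CG content. The shares therefore do not show an enrichment of this core. These are matches of letters, and binding was not measured.

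Mirg and Rtl1 are read here through their long transcripts, but small RNAs are also encoded within them. RefSeq places 113 mature miRNAs with 104 distinct seeds between Dlk1 and Dio3. Of these, 26 lie within Mirg on its strand, and 11 lie within Rtl1 on the opposite strand, where they are complementary to the Rtl1 transcript. A selection is printed 5′ to 3′ with the seed, bases 2 to 8, in capitals: 5 from Mirg, of which miR-453 and miR-496a-5p share the seed GGUUGCC, and 3 from the strand opposite Rtl1.
miR-134-5p: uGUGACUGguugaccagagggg
miR-382-5p: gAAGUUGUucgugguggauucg
miR-410-3p: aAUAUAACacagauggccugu
miR-453: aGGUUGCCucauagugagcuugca
miR-496a-5p: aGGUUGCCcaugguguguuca
miR-127-3p: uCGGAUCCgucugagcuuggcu
miR-433-3p: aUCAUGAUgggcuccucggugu
miR-434-3p: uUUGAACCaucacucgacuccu
The mature forms have no poly(A) tail. The 67 miRNA genes and 23 snoRNA genes of the domain in the table together drew between 11 and 49 counts per library, too few for a test, so nothing below is a measurement of these small RNAs.

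Dlk1, the protein-coding gene at the far end of the domain from Dio3, had near equal levels in both genotypes. Dio3 was chosen as the reference because of its rise, so its values are a description: 0, 4, 4, 1 and 14 counts in the controls and 39, 50, 42, 52 and 47 in the libraries labelled cKO, 23 against 230 in all, with a log2 fold change of 3.32 (95% interval 2.20 to 4.43). Dlk1 had 20.8, 26.9, 22.5, 22.0 and 34.6 CPM in the controls and 34.1, 28.2, 20.1, 21.5 and 28.0 in the libraries labelled cKO. Its groups overlapped over almost their whole range, and its log2 fold change was 0.06 ± 0.16 (SE; 95% interval -0.30 to 0.41; edgeR adjusted p = 0.927). Left-out libraries moved the value between -0.06 and 0.19.

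Rtl1, the other paternally expressed member of the domain, was close to the limit of detection. It had 0.443, 0.309, 0.667, 0.610 and 0.946 CPM in the controls and 0.270, 0.143, 0.597, 0.204 and 0.355 in the libraries labelled cKO, from 11 to 37 and from 5 to 24 counts. All 5 controls had at least 10 counts, so they alone met the filter. The libraries labelled cKO had 9, 5, 24, 8 and 13. The values overlapped, with 4 of the 5 cKO-labelled libraries below 4 of the 5 controls. The log2 fold change was -0.90 ± 0.40 (SE; 95% interval -1.77 to -0.04), was not called (edgeR adjusted p = 0.495), and ranged from -1.28 to -0.67 as single libraries were left out. Its exons share 596 bases with miRNA genes, 6 of them on the other strand, and whether the counting used strand is not given in the sources used here, so reads of the opposite transcript cannot be told apart from its own.

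The 3 maternal non-coding RNAs were each lower in mean level in the libraries labelled cKO, and none was called by edgeR. Rian, which hosts snoRNAs, had 222, 228, 232, 227 and 251 CPM in the controls and 220, 182, 147, 136 and 171 in the libraries labelled cKO. On this CPM scale it was the only member whose groups did not overlap (1 of 39, 2.56%, beside 2.84% of all tested genes). The gap was between 222 and 220 CPM. Its log2 fold change was -0.44 ± 0.11 (SE; 95% interval -0.68 to -0.20; edgeR adjusted p = 0.142). DESeq2 gave -0.43 with an adjusted p of 0.0328, limma-voom -0.49 with 0.0194, and edgeR without cKO library 1 -0.55 with 0.0217. That library was the cKO-labelled one nearest the controls, and its removal was the only one that gave a call for Rian. Without cKO library 5 the edgeR adjusted p was 0.325.

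Meg3, the long RNA nearest the control region of the domain, was more variable than Rian. It measured 110, 82.7, 153, 170 and 170 CPM in the controls and 124, 83.9, 86.1, 81.0 and 125 in the libraries labelled cKO. Control libraries 1 and 2 lay within the cKO-labelled range, and the other 3 controls were above every cKO-labelled library. The log2 fold change was -0.45 ± 0.19 (SE; 95% interval -0.87 to -0.04; edgeR adjusted p = 0.479), and -0.60 without control library 2. Mirg, the miRNA host, had 2.99, 5.00, 3.45, 3.99 and 4.14 CPM in the controls and 3.30, 2.20, 2.44, 2.94 and 2.51 in the libraries labelled cKO. All controls but library 1 exceeded all libraries labelled cKO, with a log2 fold change of -0.55 ± 0.17 (SE; 95% interval -0.92 to -0.18; edgeR adjusted p = 0.281). The exons of Rian share 623 bases, those of Meg3 1499 and those of Mirg 367 with other annotated genes, mainly small RNA genes.

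**Figure D2:**
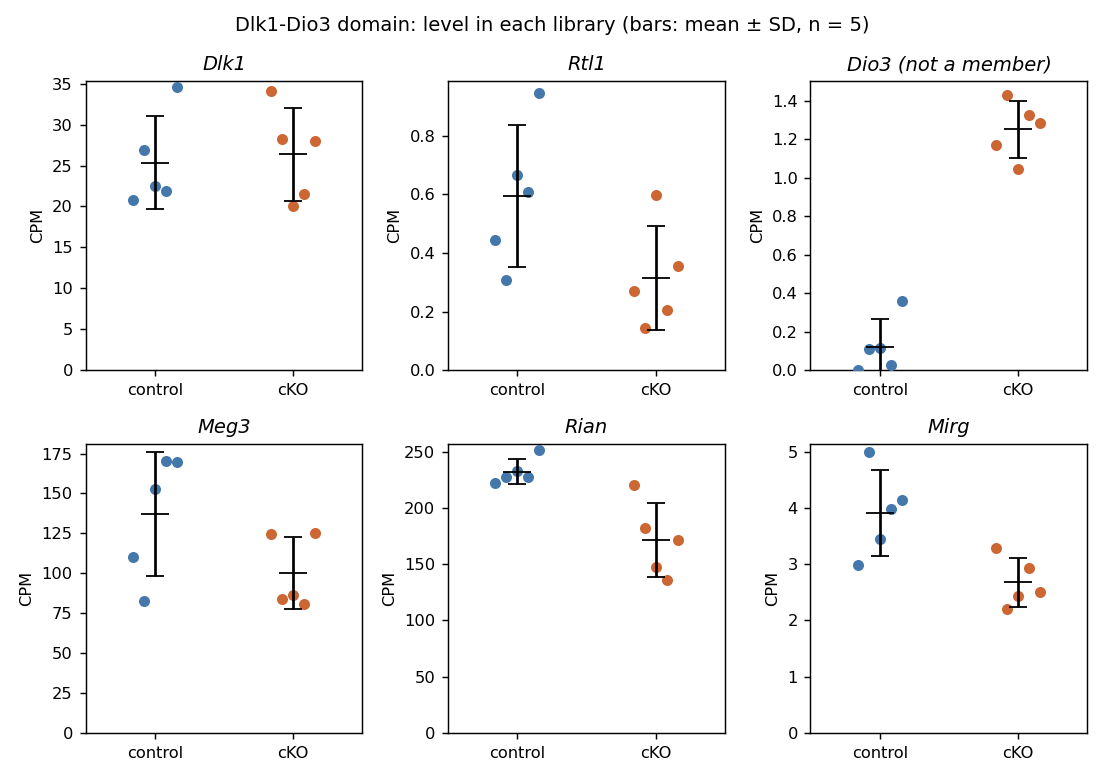
CPM (vertical axes, each starting at 0) in every library for the 5 imprinted genes of the domain and for Dio3; points are animals, bars the mean ± SD of 5. Dio3 separates the genotypes upward, with every library labelled cKO at 1.04 CPM or more, Rian separates them downward by a narrow gap, and Dlk1 overlaps throughout.

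No other tested gene in or around the domain was called. In the 530 kb from the end of Mirg to the start of Dio3 no further gene was tested, and of 118 table genes from Dlk1 to Dio3 only 38 had a count in any library and 6 were tested. Within 1 Mb on the outer sides, 30 genes were tested, of which 0 were called by edgeR (background 0.619%), 3 had an unadjusted p under 0.05 and 11 were lower, and the median was 0.02 on the log2 scale. The 3 were Amn, with a log2 fold change of -1.42 (edgeR adjusted p = 0.241), Rcor1, with 0.23 (0.480), and Eml1. Dio3os, the antisense transcript beside Dio3, had 4, 0, 2, 0 and 1 counts in the controls and 16, 6, 16, 3 and 5 in the libraries labelled cKO, and was below the filter for testing.

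**Figure D3:**
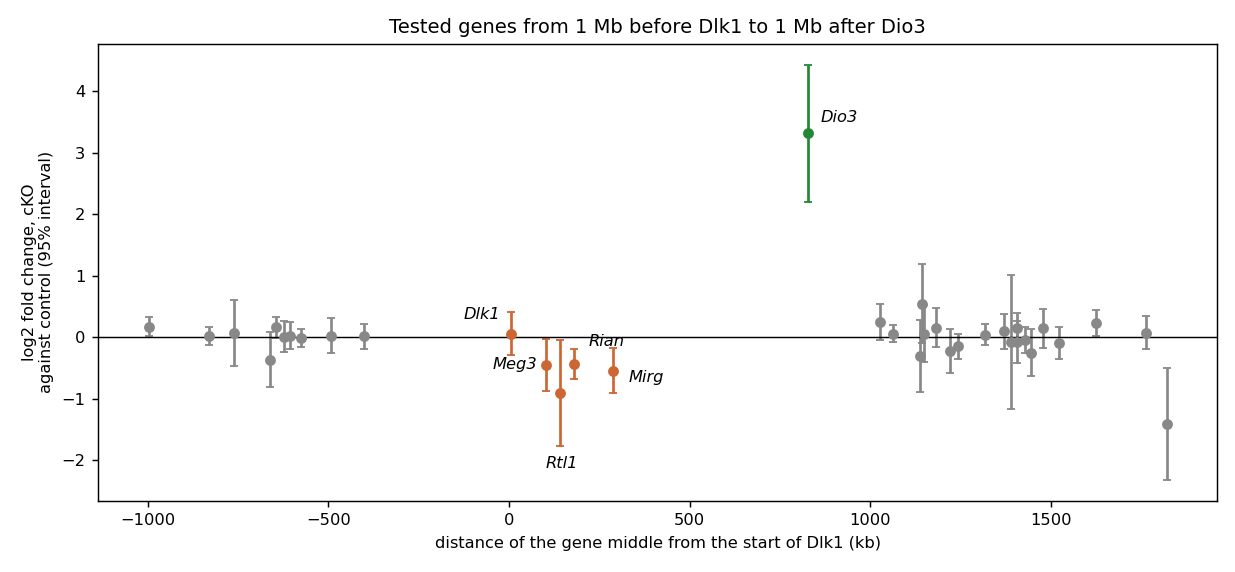
Log2 fold change with its 95% interval (vertical axis) of each tested gene from 1 Mb before Dlk1 to 1 Mb after Dio3, by the distance of the gene's middle from the start of Dlk1 in kb. The members are orange, Dio3 green and flanking genes grey; Dio3 lies at 3.32 and the members between -0.90 and 0.06.

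The Snrpn domain of chromosome 7, homologous to the human Prader-Willi and Angelman region, held the member with the smallest p. Snrpn encodes a protein of the splicing machinery abundant in neurons, and its paternal start region carries the imprinting centre. The RefSeq window at the start it shares with Snurf (chr7:60005150-60005449, mm10, minus strand) is printed on the gene's strand with CG in capitals. It has 7 CG and 1 TGCCGC on either strand.
Snrpn and Snurf start: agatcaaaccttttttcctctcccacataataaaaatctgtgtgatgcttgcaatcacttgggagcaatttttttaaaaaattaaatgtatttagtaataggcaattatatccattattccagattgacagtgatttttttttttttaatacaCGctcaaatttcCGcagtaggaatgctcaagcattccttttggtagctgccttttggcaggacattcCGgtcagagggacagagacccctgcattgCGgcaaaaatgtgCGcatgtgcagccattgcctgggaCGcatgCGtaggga
Snrpn had 59.1, 79.9, 56.3, 52.3 and 53.0 CPM in the controls and 52.3, 38.7, 42.2, 29.4 and 38.6 in the libraries labelled cKO. The groups touched at 52.3, where control library 4 (52.299) met cKO library 1 (52.313), and otherwise stayed apart. An overlap this small holds for this CPM scale only. The log2 fold change was -0.58 ± 0.15 (SE; 95% interval -0.89 to -0.26; edgeR adjusted p = 0.132), and -0.47 without control library 2, whose value was the highest. Snurf is read from the same bicistronic RNA: all 216 bases of its exons lie in exons of Snrpn and of Gm38393, so its 0 counts do not measure its level. The limit reaches Snrpn too, whose exon overlaps with Gm38393, Snurf and Gm18908 sum to 953 bases, beside 2159 bases of exon. Gm38393 had a log2 fold change of -0.21 (edgeR adjusted p = 0.783). Snhg14, the long RNA that runs on from Snrpn across Ube3a and was looked up after its values were seen, had a log2 fold change of -0.43 ± 0.11 (SE; edgeR adjusted p = 0.155). The rest of the domain was near 0: Ndn, which encodes the protein necdin, gave 0.01, Magel2, its paralogue, -0.14 (-0.25 without control library 2), and Ube3a, a ubiquitin ligase used from the maternal copy in neurons, -0.03 (edgeR adjusted p of 0.860 or above). Exons of Ube3a overlap Snhg14 on the other strand.

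Several marker lists held mostly lower members beside Rian and Snrpn, and others mostly higher ones. The summed CPM of 10 neuronal markers ran from 1115 to 1304 in the controls and from 733 to 1371 in the libraries labelled cKO (7 of 10 lower, 1 called, Elavl4; median log2 fold change -0.24). For 10 markers of Schwann cells and satellite glia the sums were 1288 to 1482 and 883 to 1361 (8 of 10 lower, 0 called; median -0.44). No marker of either list was at 0 in all libraries. Within the libraries labelled cKO, library 1 had the highest neuronal sum (1371) and the highest Rian, Mirg and Snrpn, and library 4 had the lowest neuronal sum (733) and the lowest Rian and Snrpn. Mirg did not follow in library 4, where its 2.94 CPM was second highest. Meg3 was lowest in library 4 (81.0 CPM) but highest in library 5 (125, beside 124 in library 1). Rtl1 was highest in library 3 (0.597) and lowest in library 2 (0.143). The glial sum was also lowest in library 4 (883), but it was highest in library 3 (1361), where Rian was second lowest, and stood at 1238 in library 1. The controls were mixed as well. Control library 2 had the highest neuronal sum (1304) and the highest Snrpn and Mirg, but the lowest Meg3 (82.7 CPM) and Rtl1. Control library 5 had the lowest neuronal sum (1115) but the highest Rian (251 CPM) and Rtl1. All 10 proliferation markers were lower (0 called; median -0.26), as were all 7 erythroid markers tested (0 called; median -0.76). Of 10 brain markers tested, 7 were lower and 4 called (Aqp4, Cbln1, Olig1 and Olig2; median -0.17), while the summed brain markers were 352 to 444 in the controls and 433 to 486 in the libraries labelled cKO. The part of these cells in the levels of the imprinted genes was not tested, and in a whole tissue fewer cells of a type and less RNA per cell cannot be told apart. Of 13 marker lists, only the macrophage sums did not overlap, at 341 to 402 in the controls and 412 to 479 in the libraries labelled cKO (7 of 10 higher, 0 called). Also mostly higher were mesenchyme and fibrocytes (8 of 10), melanocytes (7 of 8), cochlear epithelium (7 of 11) and endothelium (5 of 8). Hair cells (6 of 10), cartilage and bone (5 of 9) and skeletal muscle (5 of 6) were mostly lower, and none of these 7 lists had a call.

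Grb10 and Igf2, regulators of growth, were higher in mean level in the libraries labelled cKO, without a call. Grb10, an adaptor that damps insulin and IGF receptor signalling, had 485, 410, 510, 462 and 499 CPM in the controls and 605, 493, 575, 586 and 585 in the libraries labelled cKO. Only cKO library 2 lay within the control range. The log2 fold change was 0.27 ± 0.09 (SE; 95% interval 0.08 to 0.45; edgeR adjusted p = 0.293). Igf2 had 162, 98.8, 224, 199 and 184 CPM in the controls and 188, 217, 253, 235 and 230 in the libraries labelled cKO, so control library 2 was far below the rest. Its log2 fold change of 0.37 (edgeR adjusted p = 0.501) became 0.21 without that library. Overlaps of Igf2 exons with Gm49394 and, on the other strand, Igf2os sum to 3694 bases, beside 5723 bases of exon. How reads in shared bases were counted is not given in the sources used here, so the level of Igf2 carries this limit.

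H19, the maternal non-coding RNA that shares its enhancers with Igf2, was among the most abundant RNAs of the cochlea and overlapped fully, from 2976 to 4160 CPM in the controls and from 3575 to 4006 in the libraries labelled cKO (log2 fold change 0.08; edgeR adjusted p = 0.818). Igf2r, the receptor that clears Igf2, gave 0.22, or 0.09 without control library 2, and Airn, the paternal RNA that silences it, 0.04. Plagl1, a zinc-finger factor known to act on other imprinted genes, gave 0.25, and 0.16 without control library 2 (edgeR adjusted p = 0.496 with all libraries). In the Kcnq1 domain, Cdkn1c, an inhibitor of cyclin-dependent kinases, gave 0.03, its cis-acting RNA Kcnq1ot1 -0.15, Phlda2, a restrainer of placental growth, 0.48, and the transporter gene Slc22a18 0.04. The Cdkn1c value moved to 0.17 and that of Kcnq1ot1 to -0.34 without control library 2, in which Cdkn1c was at 772 CPM against 468 to 524 in the other controls.

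The 3 genes of the Peg3 domain pointed in different directions. Peg3, a large zinc-finger protein linked to maternal behaviour and growth, had 539, 328, 490, 468 and 584 CPM in the controls and 552, 569, 612, 621 and 630 in the libraries labelled cKO, with the lowest value in control library 2. Its log2 fold change was 0.31 (edgeR adjusted p = 0.457), or 0.19 without that library. Zim1, its maternal neighbour, gave 0.29 ± 0.12 (SE; edgeR adjusted p = 0.450), or 0.19 without control library 2. Usp29, a ubiquitin protease gene that starts beside Peg3 and runs the other way, gave -0.35 ± 0.14 (SE; edgeR adjusted p = 0.425), with 7.23 to 11.9 CPM in the controls and 6.38 to 8.49 in the libraries labelled cKO. Exons of Usp29 share 2676 bases with other genes, including Zim3 on the other strand.

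Several members sit inside or beside a host gene of the same locus. Peg13, a non-coding RNA within Trappc9, had 122, 89.4, 121, 129 and 119 CPM in the controls and 109, 96.5, 102, 80.7 and 79.8 in the libraries labelled cKO. Only control library 2 lay inside the cKO-labelled range. The log2 fold change was -0.31 ± 0.11 (SE; edgeR adjusted p = 0.371), and -0.40 without control library 2 (edgeR adjusted p = 0.0385). That fit leaves out the only control value that overlapped, so its lower p is no separate support. No other left-out library gave a call for Peg13, and without cKO library 5 the edgeR adjusted p was 0.733. Trappc9 gave 0.04. Mcts2, a retrogene within H13, gave -0.30 ± 0.12 (SE; edgeR adjusted p = 0.451) and H13, a signal peptide peptidase, -0.02. Zrsr1 gave -0.10 and its host Commd1 -0.22, of which -0.02 remained without control library 2. Nnat, an endoplasmic reticulum proteolipid of developing brain, gave -0.03 and Blcap 0.05. Mest and Copg2, which share 912 bases of exon on opposite strands, gave 0.02 and 0.07.

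For the remaining members the adjusted p was at least 0.526 (edgeR). Peg10, a retrotransposon-derived gene needed for the placenta, gave 0.09, Sgce, the epsilon-sarcoglycan that shares its start region, -0.04, and Asb4 0.09. Gnas, the stimulatory G protein gene whose locus gives several imprinted transcripts, gave 0.12 over all of them together, or 0.04 without control library 2. Impact gave 0.04, Rasgrf1, a Ras exchange factor, 0.30, and Nap1l5 -0.32. Nap1l5 was spread widely among the libraries labelled cKO, from 9.57 CPM in library 4 to 31.5 in library 1, and from 17.2 to 27.8 in the controls. Its fold change was -0.61 without cKO library 1 and -0.16 without cKO library 4. By parental copy, as known from other tissues, 11 of 21 tested paternal genes were lower (median -0.03 on the log2 scale), as were 6 of 18 maternal genes (median 0.04). Outside the Dlk1-Dio3 domain the median of 34 members was 0.04, and within it -0.45 over 5.

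The balance of a paternal to a maternal gene of a locus is free of the scale of a library, and 5 pairs were compared as log2 ratios of CPM. Dlk1 to Meg3 had ratios of -2.40, -1.62, -2.76, -2.95 and -2.29 in the controls and -1.87, -1.57, -2.10, -1.91 and -2.16 in the libraries labelled cKO. Every control but library 2 lay below every library labelled cKO. The means were -2.41 ± 0.52 and -1.92 ± 0.23 (SD, n = 5), a difference of 0.49 that was not past the threshold (exact two-sided permutation test, p = 0.103, adjusted over the 5 pairs 0.516). Without control library 2 the difference was 0.68 (exact permutation p = 0.00794, adjusted 0.0397). Leaving out the only control that overlapped fixes this p at the smallest that 4 against 5 libraries can give. That p is therefore no support for a difference in the ratio. This ratio rests on the Meg3 values above and is no separate evidence for them.

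The other pairs did not pass either. Igf2 to H19 averaged -4.38 ± 0.58 in the controls and -4.05 ± 0.19 in the libraries labelled cKO (SD, n = 5; difference 0.33, exact permutation p = 0.238, adjusted 0.582). Control library 2 was at -5.40 and the other controls were between -4.28 and -4.00. The size of this ratio carries the limit of the Igf2 exon overlap given above. Airn to Igf2r differed by -0.20 (exact permutation p = 0.349), Kcnq1ot1 to Cdkn1c by -0.11 (exact permutation p = 0.841) and Peg3 to Zim1 by 0.02 (exact permutation p = 0.754), with adjusted values of 0.582, 0.841 and 0.841.

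**Figure D4:**
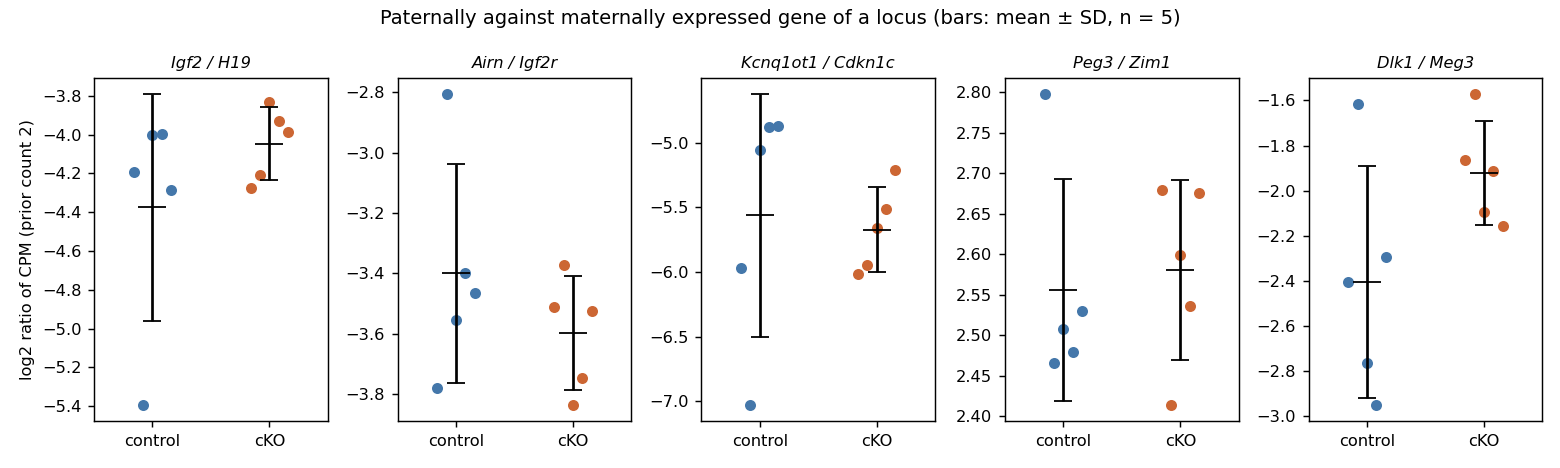
Log2 ratio of CPM of the paternally to the maternally expressed gene of 5 loci (vertical axes, own scale for each locus and not starting at 0) in every library; bars are the mean ± SD of 5. Control library 2 gives the lowest Igf2 to H19 ratio of the controls (-5.40) and their highest Dlk1 to Meg3 ratio (-1.62), and the control mean of Dlk1 to Meg3 is -2.41 against -1.92.

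The pairs of members examined did not vary together in a way that passed correction. Over the 10 libraries Meg3 and Rian had a Pearson r of 0.67 (permutation p = 0.0379, adjusted over 6 pairs 0.228) and a Spearman rho of 0.58 (permutation p = 0.0868, adjusted 0.521). Leaving out the 2 libraries farthest from the median of Meg3 gave an r of 0.54, and deviations from the genotype means an r of 0.49. Without control library 2 the r of Meg3 and Rian was 0.84, so its size depended on the libraries kept. For Dlk1 and Meg3 r was 0.26, for Ndn and Magel2 -0.50, and for Dlk1 and Igf2 -0.24 (permutation p of 0.147 or above). Without the 2 libraries farthest in Dlk1, the r of Dlk1 and Meg3 was -0.15. Igf2 and H19 had an r of -0.24 over all libraries and 0.59 without control library 2, and Peg10 and Sgce -0.21 and 0.49, so both signs rested on that library. No correlation with Dio3 is given, since its libraries fall into separate clusters by genotype.

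Per length, the imprinted genes of the newborn cochlea covered over 4 orders of magnitude. H19 led with 1409 ± 174 FPKM in the controls and 1493 ± 74.8 in the libraries labelled cKO (SD, n = 5), followed by Cdkn1c with 270 ± 57.4 and 277 ± 10.9, and Nnat with 133 ± 26.6 and 131 ± 21.8. Mest, a hydrolase-like protein of mesodermal tissue, came next with 87.9 ± 6.71 and 89.6 ± 8.99. Each of these 4 had a range over the 10 libraries that did not overlap the next gene in the order, while from Grb10 (51.6 ± 4.60 and 62.2 ± 4.69) to Peg3, Ndn and Igf2 the ranges of neighbours overlapped, as they did further down except below Copg2, Commd1 and Mirg. In the Dlk1-Dio3 domain Rian led with 12.6 ± 0.60 and 9.35 ± 1.80 FPKM, then Meg3 with 7.53 ± 2.16 and 5.50 ± 1.22, Dlk1 with 4.44 ± 0.97 and 4.64 ± 1.00, Mirg with 0.53 ± 0.10 and 0.37 ± 0.06, and Rtl1 lowest of all members with 0.09 ± 0.04 and 0.05 ± 0.03. Over all libraries 3 members were above 100 FPKM, 18 from 10 to 100, 10 from 1 to 10 and 8 below 1, with a median of 11.0 beside 4.43 for all tested genes. No correction was made here for exon overlap with other genes, such as that of Igf2. The spread within the controls had a median coefficient of variation of 16.4%, from 3.86% to 40.8%, and within the libraries labelled cKO 10.7%.

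**Figure D5:**
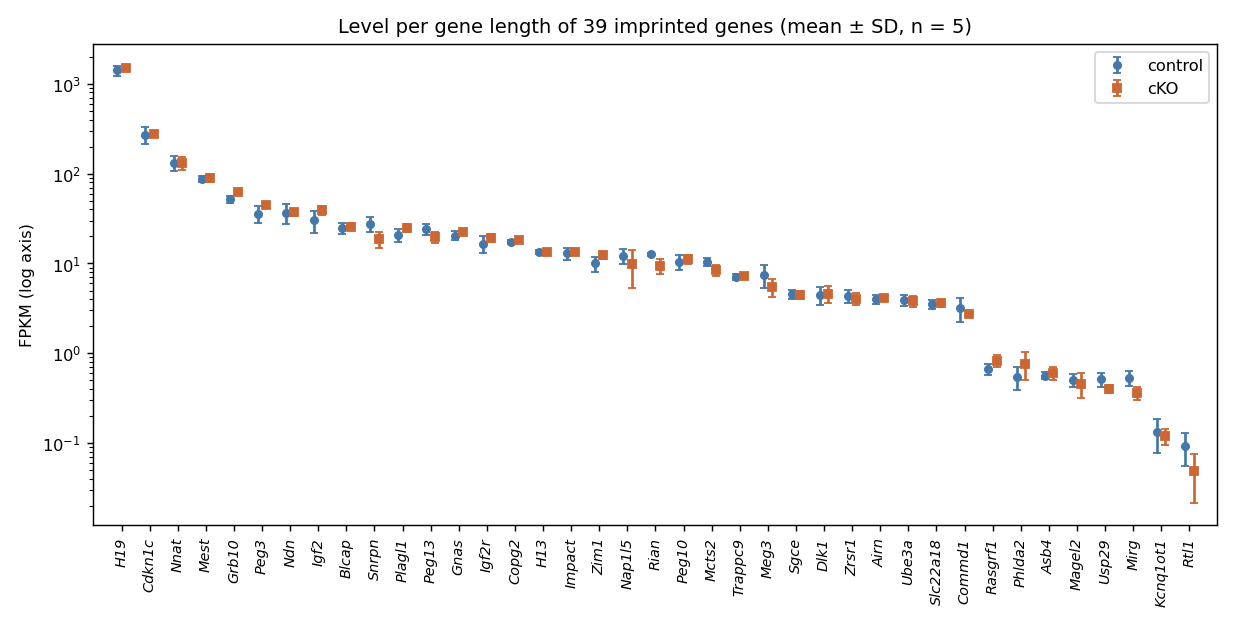
FPKM (vertical log axis) of the 39 imprinted genes in order of their mean over all libraries, as mean ± SD of 5 animals for each genotype. H19 and Cdkn1c stand above the rest, and the genotypes differ little beside the distance between genes.

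Genes that keep imprints in place gave no call. Of 20 tested genes of DNA methylation and imprint protection, edgeR called 0 and gave none an unadjusted p under 0.05. The log2 fold changes had a median of 0.05, 6 below and 14 above 0. The nearest to the threshold were the histone methyltransferase gene Ehmt2 with 0.13 and the zinc-finger gene Zfp568 with 0.24 (edgeR adjusted p of 0.575 and 0.584). In the IGF pathway, which Igf2, Igf2r and Grb10 act on, 18 genes were tested and 0 called, 15 were higher, and the median was 0.17, or 0.09 without control library 2. At an unadjusted p under 0.05 it had 4 of 18 (9.65% over all tested genes): Pappa, a protease that frees IGF from its binding proteins, with -0.59 (edgeR adjusted p = 0.181), the ligand gene Igf1 with 0.27 (0.306), its receptor gene Igf1r with 0.32 (0.386) and Pappa2 with 0.44 (0.498). Without control library 2, Igf1r was at 0.20 and Pappa2 at 0.26.

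Among 42 other imprinted genes tested, edgeR called 1, Dio3 itself, which was known to rise when the list was made, and 8 of 42 had an unadjusted p under 0.05 (9.65% over all tested genes). Of the 42, 17 were lower and 25 higher, and the median was 0.03. After Dio3 came the chloride channel gene Ano1 with 0.39 (edgeR adjusted p = 0.165) and the receptor kinase gene Axl with 0.24 (0.175), both imprinted in particular tissues only. Of 13 tested genes listed as neighbours of the Dlk1-Dio3 domain, Dio3 was also the 1 called, and Yy1, a zinc-finger regulator, was next with 0.16 (edgeR adjusted p = 0.543).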

How the data were processed

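Whole-number counts per Ensembl gene and FPKM values (fragments scaled to gene length and library total) for 10 libraries were deposited by the authors in tables of 54532 genes. The submitters' processing notes name STAR 2.5, HTSeq 0.61, DESeq2 2 and build mm10, with no roles; strand use is not given in the sources used here. Symbols, positions and exon overlaps came from GENCODE M21 (GRCm38, the assembly of mm10), which held 54495 of the IDs and all 40 listed symbols, and implied gene lengths were within 1% for 95.7% of 13923 genes. Each library is 1 animal per the labels.

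The deposited counts were filtered with edgeR 4.0.16 (filterByExpr, minimum count 10), scaled by TMM and compared by the quasi-likelihood F-test with robust estimation, genotype as the only term and Benjamini-Hochberg adjustment over 17937 genes. SEs were derived from the F statistic. Ratios and correlations used log2 CPM with prior count 2, exact permutation or 100000 resamples. Alternatives were DESeq2 1.42.0, limma 3.58.1 (voom, and FPKM on a log2 scale with pseudocounts 1 and 0.1), other scalings and filters, a replicate block, and each library left out. The test was run on simulated data first.

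Every member was named by rule, grouped by locus; beside the list, other imprinted genes, Dlk1-Dio3 neighbours, imprint maintenance genes, the IGF pathway and cell type markers were read. Members and lists were chosen with earlier results of these data known, and parental classes after values were seen. Marker sums not given with the results overlapped between genotypes: cochlear epithelium 4138 to 4970 CPM in the controls and 4575 to 4930 in the libraries labelled cKO, hair cells 98.0 to 140 and 95.4 to 124, mesenchyme and fibrocytes 4845 to 6327 and 5315 to 5991, cartilage and bone 11783 to 14086 and 12278 to 15021, melanocytes 297 to 379 and 337 to 388, endothelium 509 to 611 and 571 to 617, erythroid cells 714 to 2968 and 444 to 1296, skeletal muscle 14.8 to 25.4 and 16.2 to 20.6 (Myod1 at 0), and proliferation 513 to 733 and 399 to 705.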

Additional observations from a re-analysis of the deposited data

Results flagged for a closer look

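Of 90 groups of 5 libraries examined, 11 had a library far from the others by Dixon's criterion, where chance gives about 5%, or 4.5 groups, and 7 of the 11 were in control library 2. In that library Cdkn1c was at 772 CPM (other controls 468 to 524), Snrpn at 79.9 (52.3 to 59.1), Commd1 at 29.4 (15.3 to 17.8) and H13 at 131 (115 to 120), all above the others. Gnas was at 185 CPM (236 to 246) and Peg13 at 89.4 (119 to 129) there, both below, and the log2 ratio of Igf2 to H19 was -5.40 (-4.28 to -4.00). In control library 1 the log2 ratio of Peg3 to Zim1 was 2.80 (2.47 to 2.53). In cKO library 2 H19 was at 4006 CPM (3575 to 3640) and Grb10 at 493 (575 to 605), and in cKO library 5 Trappc9 was at 65.6 (55.1 to 57.4).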

How the results depend on the processing

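No member was called by edgeR under the other scalings and filters or with the replicate block. Calls on the lower side numbered 2 by DESeq2 and 3 by limma-voom, and 0 to 2 as single libraries were left out, where Rian ran from -0.55 to -0.36. Rian passed with -0.43 (DESeq2) and -0.49 (limma-voom). The Dlk1 to Meg3 difference ran from 0.35 to 0.68 and that of Kcnq1ot1 to Cdkn1c from -0.48 to 0.064 over the left-out libraries.

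Members near 0 changed sign, and the cause was not tested. Under limma-voom Peg10 was at -0.039, Sgce 0.0047, Mest -0.021, Nnat 0.085, Trappc9 -0.014 and H13 0.0031, and under upper-quartile scaling Ndn was at -0.0019. With libraries left out the ranges were Airn -0.036 to 0.089, Cdkn1c -0.026 to 0.17, Slc22a18 -0.0011 to 0.094, Peg10 -0.011 to 0.17, Sgce -0.087 to 0.016, Asb4 -0.0029 to 0.15, Mest -0.036 to 0.057, Dlk1 -0.057 to 0.19, Ndn -0.065 to 0.17, Ube3a -0.12 to 0.030, Nnat -0.11 to 0.086, Impact -0.032 to 0.11, Trappc9 -0.0062 to 0.073 and H13 -0.039 to 0.0080. On log2(FPKM + 1), Rtl1 gave -0.059 and Dio3 0.61, since the pseudocount exceeds their levels.

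The replicate numbers share only a number: same-numbered deviations correlated at 0.021 to 0.179, with 2 of 5 pairs over 0.1. With the replicate number as a block, 0 members were called, with adjusted p of 0.0946 for Rian and 0.0579 for Snrpn (edgeR). At this depth Rtl1 rests on 5 to 37 counts a library, the lowest of the tested members.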
